A study of Homo sapiens with 10 samples.

Results

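The secreted antimicrobial and innate defence proteins described here are 10 genes, LCN2, TCN1, SLPI, PI3, DEFB1, DEFB103B, RNASE7, C3, CFB and AZGP1, of 60168 genes in the files. They were chosen by gene symbol, with earlier counts from these same libraries known, so that their levels, differences and calls are given as a description, no p-value of a member is reported, and a call of a member is no independent evidence. mRNA had been sequenced from MCF10A, a non-tumorigenic human mammary epithelial cell line that grows as a basal-type epithelium. Cells transduced with an empty vector (control, 4 libraries), with a TRAM2 vector (MCF10A-TRAM2, 4 libraries) or with a vector for activated YAP (MCF10A-YAP5SA, 2 libraries) were compared, to ask how far TRAM2, a component of the translocon in the endoplasmic reticulum, shares the programme of YAP. YAP5SA is a form of the transcriptional co-activator YAP that lacks its inhibitory phosphorylation sites. Cells of all groups went through antibiotic selection and were grown with horse serum, EGF, insulin and hydrocortisone. By the paper's methods, the YAP5SA backbone carried a blasticidin marker (BlastR) and the TRAM2 backbone a puromycin marker (Puro). Vector and selection thus differed along with the gene expressed, the methods do not name the empty vector, and the part of this was not tested. The labels do not say whether the libraries of a group came from separate cultures, so that the spread between them may be technical, and the submitters' design text gives 3 replicates per condition where the labels list 4, 4 and 2 libraries.

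Epithelia release these proteins onto their surface as a chemical barrier against microbes. Defensins and secreted ribonucleases damage microbial membranes, carrier proteins hold back iron and vitamin B12 from bacteria, small inhibitors restrain neutrophil proteases and carry antimicrobial activity of their own, and complement factors tag microbes for uptake and lysis. In mammary epithelium several of them pass into milk, and many respond to NF-kB, C/EBP and STAT3 signalling.

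Control libraries A and C, and likewise B and D, could not be told from repeat counts of 1 library over genes with whole counts (chi-square test, ratio to the degrees of freedom 1.003 with p = 0.467 in 1449 genes, and 0.999 with p = 0.503 in 1400), where the other control pairs differed with 1.157 to 1.24 per degree of freedom. Over all genes, where estimated counts may add error of their own, these pairs gave 1.229 (chi-square p = 5.2e-56) and 1.222 (p = 1.3e-51). They did differ there, by less than the other control pairs, at 1.421 to 1.491. Each of these 2 control pairs was summed on the whole-count check and counted as 1 sample. This left 2 control, 4 MCF10A-TRAM2 and 2 MCF10A-YAP5SA samples. The 2 MCF10A-YAP5SA libraries gave 1.212 over genes with whole counts (chi-square p = 1.9e-08). On these genes that lies within the range of the unsummed control pairs, so part of their small spread may be counting error. Over all genes the MCF10A-YAP5SA pair gave 1.735, above every control pair. Estimated counts ran from 8489854 to 16314438 per library. Levels are given as normalized CPM, the estimated counts divided by the effective library size and scaled to 1e6. YAP1 stood at 187 CPM in both control samples, at 181 to 196 CPM in MCF10A-TRAM2 and at 337 and 342 CPM in MCF10A-YAP5SA. TRAM2 stood at 28.4 and 28.9 CPM in control, at 390, 611, 250 and 460 CPM in MCF10A-TRAM2 A to D, and at 242 and 247 CPM in MCF10A-YAP5SA. MCF10A-TRAM2 B stood apart from the other libraries of its group, with a chi-square per degree of freedom of 5.50 to 6.12 against them, where the other pairs of that group gave 2.07 to 4.07. All 10 basal mammary markers had counts in every group, and their summed level was 6071 to 6090 CPM in control, 5406 to 6796 CPM in MCF10A-TRAM2 and 4506 to 4517 CPM in MCF10A-YAP5SA, with 1 called higher and 5 lower in MCF10A-YAP5SA. The 8 luminal markers summed to 1699 to 1761, 1646 to 1922 and 2836 to 2892 CPM, where KRT8, KRT18 and GATA3 were called higher in MCF10A-YAP5SA, EPCAM, FOXA1, KRT19 and ESR1 lower, and PGR was at 0. Of 13 leukocyte markers 7 were at 0, ELANE and MPO among them, while CD68 stood at 38.3 CPM in control and 52.1 CPM in MCF10A-YAP5SA, CD14 at 2.10 and 0.158 CPM, and AZU1 and CSF3R had 24 and 21 counts in total. Hepatocyte markers summed to at most 0.521 CPM, with ALB at 0. The part of these markers in the members' values was not tested. In bulk RNA, fewer cells with a transcript and less of it per cell cannot be told apart.

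The reference table of RefSeq held a promoter for 5 of the 10 members. The 250 bases before the start of LCN2, CFB, TCN1 and AZGP1 are shown, since LCN2 and AZGP1 were lower in both transduced lines without overlap, CFB was higher in both, and TCN1 had no count in MCF10A-YAP5SA. Capitals mark letters that match, on either strand, a TEAD core (GGAATG), an AP-1 site (TGANTCA), a C/EBP site (TTGCNNAA), a STAT site (TTCNNNGAA), the NF-kB consensus or a TATA box (TATAAA). The sequences are from GRCh38.p14, read 5′ to 3′ on the strand of the gene, at chr9:128149203-128149452 (plus strand) for LCN2, chr6:31945845-31946094 (plus) for CFB, chr11:59866488-59866737 (minus) for TCN1 and chr7:99976032-99976281 (minus) for AZGP1.
LCN2: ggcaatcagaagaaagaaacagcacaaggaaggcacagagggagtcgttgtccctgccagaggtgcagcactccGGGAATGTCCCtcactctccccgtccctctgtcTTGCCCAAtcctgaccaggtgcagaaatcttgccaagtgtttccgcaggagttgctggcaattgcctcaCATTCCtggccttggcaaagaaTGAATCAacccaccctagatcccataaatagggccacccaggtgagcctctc
CFB: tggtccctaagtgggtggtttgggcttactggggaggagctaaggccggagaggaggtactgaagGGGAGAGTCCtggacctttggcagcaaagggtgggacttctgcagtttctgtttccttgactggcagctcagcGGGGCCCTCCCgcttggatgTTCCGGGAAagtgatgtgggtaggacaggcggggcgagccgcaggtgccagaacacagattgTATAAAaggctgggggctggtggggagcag
TCN1: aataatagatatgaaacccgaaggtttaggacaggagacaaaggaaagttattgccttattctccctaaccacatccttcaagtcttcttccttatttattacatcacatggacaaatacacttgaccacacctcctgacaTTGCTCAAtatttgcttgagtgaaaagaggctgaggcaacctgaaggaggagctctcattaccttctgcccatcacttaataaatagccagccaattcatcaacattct
AZGP1: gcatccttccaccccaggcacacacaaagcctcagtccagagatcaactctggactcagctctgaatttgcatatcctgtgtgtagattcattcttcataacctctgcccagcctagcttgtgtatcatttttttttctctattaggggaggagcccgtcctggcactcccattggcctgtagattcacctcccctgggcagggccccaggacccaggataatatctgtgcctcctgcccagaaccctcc

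The LCN2 promoter held 6 matches, of which the upstream NF-kB matches, GGGAATGTCC and its overlapping reverse match, covered a TEAD core at -175 to -170, counted from the start. A C/EBP match lay at -143, another TEAD core (CATTCC on this strand) at -74 and an AP-1 match (TGAATCA) at -52. The CFB promoter held 3 NF-kB matches, of which 2 overlapped, a STAT match (TTCCGGGAA) at -92 and a TATA box at -30. The TCN1 promoter held 1 match, to C/EBP, and the AZGP1 promoter held none of these letters. RNASE7 had a C/EBP match at -181 and an AP-1 match at -102. Over 35114 promoters of the same length, 11.9% held the TEAD core, 6.57% the AP-1 site, 9.05% the C/EBP site, 6.57% the STAT site, 18.5% the NF-kB consensus and 10.7% the TATA box. A match in these windows is a description of the letters and not a site of binding.

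The carriers of iron and vitamin B12 were both lower in MCF10A-YAP5SA. LCN2 (lipocalin 2, chromosome 9, positions 130911350 to 130915732 of GRCh37, plus strand) binds bacterial siderophores and so withholds iron. LCN2 was at 54.0 and 58.1 CPM in control, at 33.8, 34.6, 34.7 and 37.4 CPM in MCF10A-TRAM2 A to D, and at 28.2 and 25.9 CPM in MCF10A-YAP5SA. The 3 groups did not overlap, with control highest and MCF10A-YAP5SA lowest. The fitted log2 fold change against control was -1.05 (SE 0.08, 95% interval -1.22 to -0.88) in MCF10A-YAP5SA, 2.07-fold lower, and -0.67 (SE 0.06, -0.81 to -0.54) in MCF10A-TRAM2, 1.59-fold lower. The LCN2 difference between the transduced lines was -0.38 (95% interval -0.54 to -0.22). By edgeR on the 8 samples, LCN2 was the 1 member called in MCF10A-TRAM2, where DESeq2 called AZGP1 as well.

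TCN1 (transcobalamin 1 or haptocorrin, chromosome 11, 59620273 to 59633962, minus strand) binds vitamin B12 in secretions and neutrophil granules. TCN1 had 208 and 170 estimated counts in the 2 control samples, 9.52 and 9.16 CPM, and 130, 129, 103 and 122 counts in MCF10A-TRAM2, 9.68, 8.91, 6.24 and 7.70 CPM. It had no count in either MCF10A-YAP5SA sample. Against a floor of 3 counts over the MCF10A-YAP5SA group, TCN1 was at least 77.3-fold lower than in control and at least 66.4-fold lower than in MCF10A-TRAM2. In MCF10A-TRAM2 the 2 libraries of the second run (by a number in the deposited names), C and D, lay below both control samples. Libraries A and B lay on either side of the control samples. The log2 fold change of TCN1 was 0.05 in the first run and -0.48 in the second.

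The antimicrobial protease inhibitors, which lie on chromosome 20 with 75695 bases between them, did not move together. SLPI (secretory leukocyte protease inhibitor, 43880880 to 43883205, minus strand) blocks neutrophil elastase and cathepsin G at mucosal surfaces. SLPI was at 72.1 and 73.8 CPM in control, at 72.2, 92.5, 61.2 and 60.8 CPM in MCF10A-TRAM2 A to D and at 16.0 CPM in both MCF10A-YAP5SA samples. Its log2 fold change in MCF10A-YAP5SA was -2.19 against control (SE 0.25, 95% interval -2.79 to -1.59), 4.56-fold lower, and -2.16 against MCF10A-TRAM2. In MCF10A-TRAM2 the SLPI samples lay on both sides of control, with a log2 fold change of -0.03 (95% interval -0.45 to 0.39) that was 0.17 in the first run and -0.24 in the second.

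PI3 (elafin, 43803543 to 43805185, plus strand) inhibits elastase and proteinase 3 and is made by stressed epithelia. PI3 was at 11.8 and 12.01 CPM in control, at 16.2, 39.1, 13.3 and 10.7 CPM in MCF10A-TRAM2 A to D and at 19.5 and 20.6 CPM in MCF10A-YAP5SA. MCF10A-YAP5SA lay above control without overlap, and within MCF10A-TRAM2 only library B lay above MCF10A-YAP5SA while library D lay below control. Neither line was called for PI3, with a log2 fold change of 0.75 under YAP5SA (SE 0.69, 95% interval -0.98 to 2.49) and of 0.72 under TRAM2 (SE 0.59, -0.76 to 2.21). Without MCF10A-TRAM2 B the PI3 values were 0.75 and 0.16, and the first of them was then called. By run, the MCF10A-TRAM2 value was 1.22 in the first and 0.03 in the second. MCF10A-TRAM2 B also had the highest TRAM2 level of its group, 611 CPM, and the part of that level in the PI3 value was not tested.

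**Figure D1:**
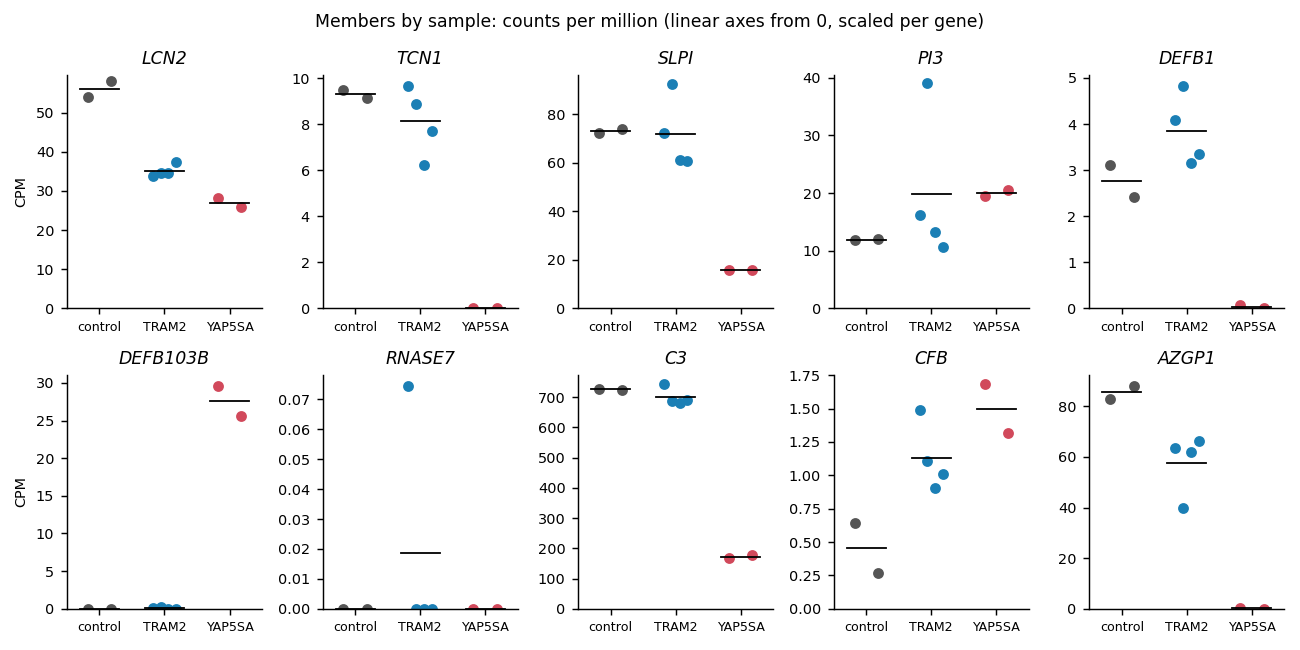
Normalized CPM of each member in the 2 control, 4 MCF10A-TRAM2 (TRAM2) and 2 MCF10A-YAP5SA (YAP5SA) samples, with 1 point per sample, a line at the group mean and a linear axis from 0 for each gene. In MCF10A-YAP5SA, TCN1, DEFB1 and AZGP1 lie at or near 0, DEFB103B appears at 29.6 and 25.6 CPM, and C3 and SLPI lie far below the other groups.

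The beta-defensins moved in opposite directions. DEFB1 (chromosome 8, 6728114 to 6735458, minus strand) is the beta-defensin that epithelia make without induction. DEFB1 had 68 and 45 counts in control, 3.11 and 2.42 CPM, and 55, 70, 52 and 53 counts in MCF10A-TRAM2, 4.10, 4.83, 3.15 and 3.35 CPM. In MCF10A-YAP5SA it had 1 count in sample A and none in sample B. The ratio of control to MCF10A-YAP5SA was 69.4 (95% counting interval 12.2 to 2764), from 113 counts against 1. MCF10A-TRAM2 lay above both control samples, with a log2 fold change of 0.47 (95% interval -0.05 to 0.98) that was not called.

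DEFB103B (beta-defensin 3, chromosome 8, 7286410 to 7287870, minus strand) is a broadly active defensin that keratinocytes make on wounding or growth factor stimulation. It had no count in either control sample, 1, 3, 0 and 0 counts in MCF10A-TRAM2 A to D, and 352 and 331 counts in MCF10A-YAP5SA, 29.6 and 25.6 CPM. Against a floor of 3 counts over the control group, DEFB103B was at least 371-fold higher in MCF10A-YAP5SA. Against the 4 counts of MCF10A-TRAM2 the ratio was 415 (95% counting interval 161 to 1527). A nearly identical copy, DEFB103A, had no values of its own in the deposited data and was not analysed here. Reads of either copy could have been assigned to DEFB103B, so the locus that gave them is uncertain.

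RNASE7 (chromosome 14, 21510475 to 21512393, plus strand), the antimicrobial ribonuclease of skin and urinary epithelium, had 1 count in MCF10A-TRAM2 A and none in the other 7 samples. It did not pass the filter on low counts, which 9 of the 10 members passed. The floor of 3 counts over a group corresponds to 0.0742 CPM in control, 0.0498 CPM in MCF10A-TRAM2 and 0.121 CPM in MCF10A-YAP5SA, so RNASE7 was not detectable at this depth. Intervals and floors from counts cover counting error only.

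The complement factors C3 and CFB, which together build the convertase of the alternative pathway, also moved in opposite directions. C3 (chromosome 19, 6677715 to 6730573, minus strand) is the central component that is cleaved on microbial surfaces. C3 was at 729 and 723 CPM in control, at 745, 686, 682 and 692 CPM in MCF10A-TRAM2 A to D and at 168 and 177 CPM in MCF10A-YAP5SA. MCF10A-TRAM2 overlapped control and MCF10A-YAP5SA lay far below both. The log2 fold change of C3 in MCF10A-YAP5SA was -2.07 against control (SE 0.06, 95% interval -2.20 to -1.95), 4.21-fold lower, and -2.02 against MCF10A-TRAM2. In MCF10A-TRAM2 the interval against control ran from -0.15 to 0.05.

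CFB (factor B, chromosome 6, 31913427 to 31919863, plus strand) supplies the serine protease of that convertase. It was a low transcript, with 14 and 5 counts in control, 20, 16, 15 and 16 in MCF10A-TRAM2 and 20 and 17 in MCF10A-YAP5SA. These are 0.641 and 0.269 CPM, 1.49, 1.10, 0.908 and 1.01 CPM, and 1.68 and 1.32 CPM. Both transduced lines lay above control without overlap. The log2 fold change of CFB was 1.67 in MCF10A-YAP5SA (SE 0.47, 95% interval 0.66 to 2.68) and 1.26 in MCF10A-TRAM2 (SE 0.42, 0.35 to 2.16), of which the first was called. The MCF10A-YAP5SA value depended on the control sample, at 2.44 without control 1 and 1.22 without control 2, and it was not called without control 2 or without MCF10A-YAP5SA A, where it was 1.50. The overlapping gene C2 had 24 counts over all samples and the readthrough transcript of C2 and CFB had 5.

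AZGP1 (zinc-alpha-2-glycoprotein, chromosome 7, 99564343 to 99573665, minus strand) is a secreted, lipid-binding relative of MHC class I molecules that is abundant in epithelial secretions. AZGP1 was at 83.0 and 88.0 CPM in control, at 63.3, 39.6, 61.9 and 66.2 CPM in MCF10A-TRAM2 A to D, and had 2 counts and 1 count in MCF10A-YAP5SA, 0.168 and 0.0774 CPM. The 3 groups did not overlap. The ratio of control to MCF10A-YAP5SA was 705 (95% counting interval 241 to 3422), from 3447 counts against 3. In MCF10A-TRAM2 the log2 fold change of AZGP1 was -0.56 (SE 0.19, 95% interval -1.03 to -0.09) and was not called by edgeR, with -0.42 without library B, which was the lowest. It was called by DESeq2, at -0.56. The pseudogene AZGP1P1, 4720 bases away, had 46 counts in total.

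Genes were called at a Benjamini-Hochberg adjusted p under 0.05 in edgeR and an absolute log2 fold change over 0.5. In MCF10A-YAP5SA against control, 6 of the 9 members that passed the filter were called lower (LCN2, TCN1, SLPI, DEFB1, C3 and AZGP1) and 2 were called higher (DEFB103B and CFB), beside 14.1% of all genes tested called lower and 15.3% called higher. In MCF10A-TRAM2 against control 1 member was called lower, beside 0.0254% of all genes lower and 0.0317% higher. Counted by samples alone, LCN2 and AZGP1 lay below control and DEFB1 and CFB above control in MCF10A-TRAM2 without overlap, beside 12.3% of genes tested that lay lower and 10.5% that lay higher in the same way. In MCF10A-YAP5SA against MCF10A-TRAM2, 5 members were called lower and DEFB103B higher, beside 14.6% and 14.9% of all genes, while LCN2, PI3 and CFB were not called. The first 2 of these comparisons share the control samples and the last is built from the same libraries. The members tested had a median log2 fold change of -2.07 for MCF10A-YAP5SA and of -0.03 for MCF10A-TRAM2, with medians over all genes of -0.01 and -0.000614. These counts follow from how the members were chosen and are read as a description.

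**Figure D2:**
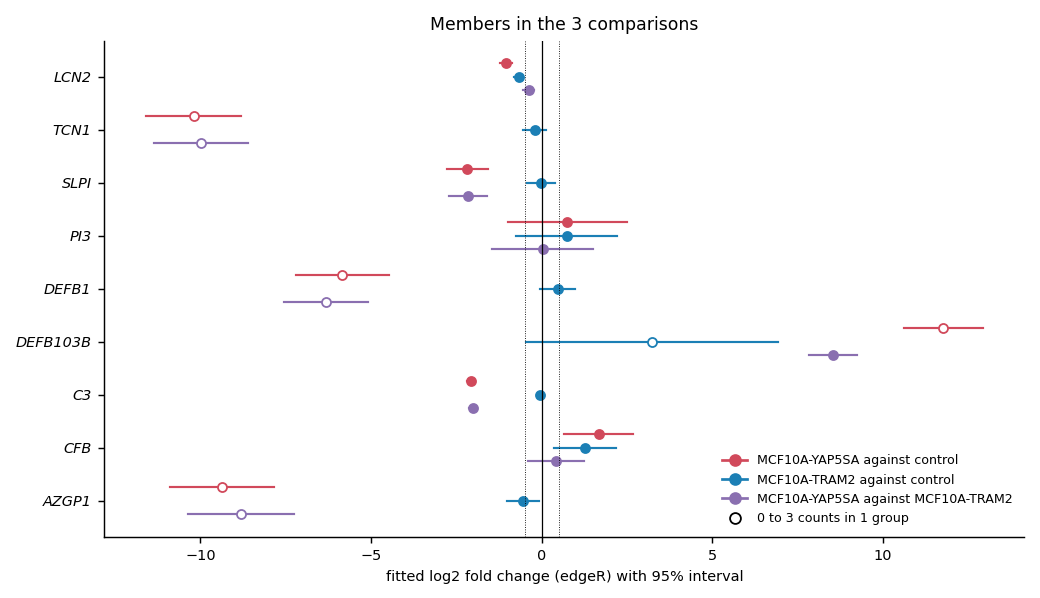
Fitted log2 fold change (horizontal axis) with its 95% interval for the 9 members that passed the filter, in the 3 comparisons. Open points mark fits with 0 to 3 counts in 1 group, whose size depends on the fit's prior count, and dotted lines mark 0.5 in either direction. LCN2 lies below 0 in every comparison, and MCF10A-TRAM2 intervals of SLPI, PI3, TCN1, DEFB1, DEFB103B and C3 include 0.

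Levels per transcript length (TPM, the share of transcripts scaled to 1e6) ranked the members within a group. In control, C3 led with 1074 ± 24.0 TPM (SD, n = 2), followed by SLPI with 93.4 ± 0.277, LCN2 with 60.2 ± 3.24, AZGP1 with 57.9 ± 1.43, PI3 with 17.5 ± 0.00832, TCN1 with 14.1 ± 0.889, DEFB1 with 9.76 ± 1.99 and CFB with 0.213 ± 0.00187. These sums take in every annotated transcript, and for C3 most of the TPM lay on short models, since the full-length C3-201 held a median of 51.0% of its counts but 3.07% of its TPM in control. The samples of LCN2 and AZGP1 overlapped, and those of the other neighbours in this order did not. The small SD of CFB does not show a precise level, as its control samples had 14 and 5 counts, 0.641 and 0.269 CPM. In MCF10A-TRAM2, C3 (1015 ± 91.8 TPM, n = 4) and SLPI (92.7 ± 19.3) led again, and the samples of AZGP1, LCN2, PI3, DEFB1 and TCN1 overlapped from each neighbour to the next. In MCF10A-YAP5SA the order was C3 (249 ± 2.03 TPM, n = 2), DEFB103B (44.8 ± 4.24), PI3 (29.0 ± 1.31), LCN2 (28.1 ± 3.11) and SLPI (20.1 ± 0.186), with the samples of PI3 and LCN2 overlapping and CFB, DEFB1 and AZGP1 all under 0.5 TPM.

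Summed over the 10 members, the level was 1327 ± 21.9 TPM in control (SD, n = 2), 1242 ± 107 TPM in MCF10A-TRAM2 (n = 4) and 372 ± 3.88 TPM in MCF10A-YAP5SA (n = 2). C3 made up 80.6% and 81.3% of that sum in control and 66.2% and 67.9% in MCF10A-YAP5SA. DEFB103B, with no count in control, made up 12.8% and 11.3% of the sum in MCF10A-YAP5SA, and PI3 made up 1.31% and 1.34% in control against 7.49% and 8.10%.

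The order and the sum changed when 1 protein-coding transcript stood for each member, the one with the most counts, a choice made after the data were seen. C3-201 then had 32.8 ± 0.577 TPM in control (SD, n = 2), 32.0 ± 1.19 in MCF10A-TRAM2 (n = 4) and 7.81 ± 0.518 in MCF10A-YAP5SA (n = 2), so that C3 was still lower in MCF10A-YAP5SA but no longer first. In control SLPI led with 93.4 TPM, followed by LCN2 with 32.9 ± 4.01, C3 and AZGP1 with 30.6 ± 0.885. In MCF10A-YAP5SA DEFB103B led with 44.8 TPM. The sum was then 218 ± 2.19 TPM in control, 208 ± 40.3 in MCF10A-TRAM2 and 121 ± 5.49 in MCF10A-YAP5SA, and C3 made up 14.8% and 15.3% of it in control.

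**Figure D3:**
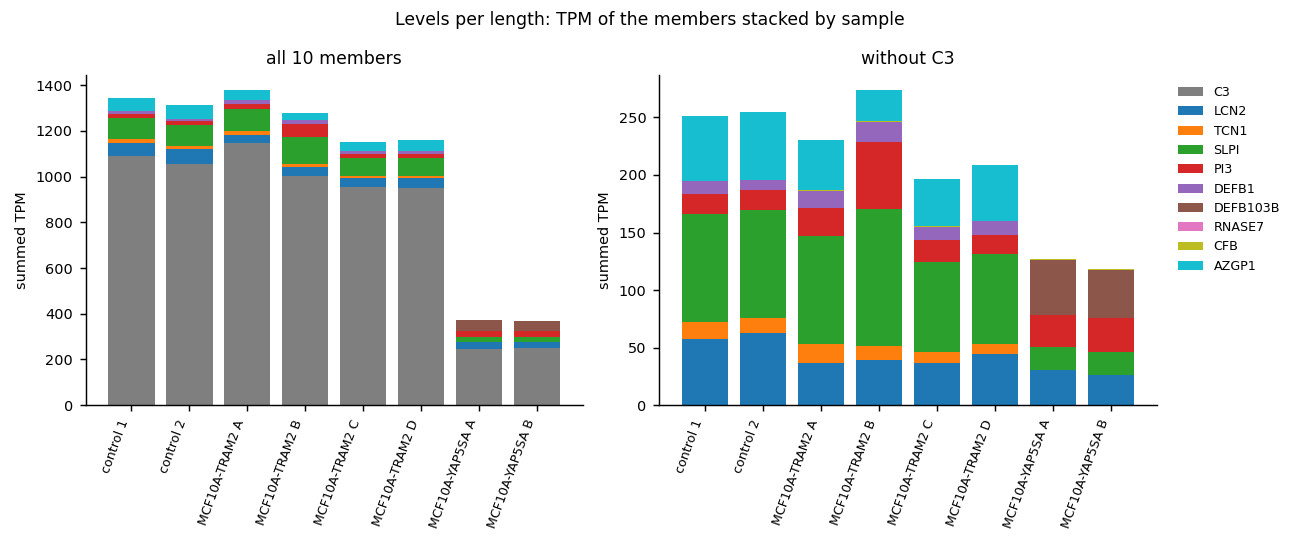
TPM of the members stacked by sample on a linear axis from 0, with C3 (left) and without it (right). The 2 MCF10A-YAP5SA samples sum to 374 and 369 TPM, against 1153 to 1378 TPM in the other 6 samples, over all annotated transcripts, and DEFB103B appears only in their bars at a visible height.

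The annotated transcripts behind these sums were not used to choose the members. SLPI, PI3, DEFB1 and DEFB103B have 1 transcript each in the files, C3 has 18 and LCN2 has 7. By estimated counts, the protein-coding transcripts of C3 held 59.6% to 60.5% of the gene in the 4 control libraries, 58.6% to 61.3% in MCF10A-TRAM2 and 59.4% to 61.0% in MCF10A-YAP5SA, so that the split of C3 stayed within these ranges while its level fell by 2.07 on the log2 scale. The full-length C3-201 held 50.6% to 51.4%, 50.2% to 52.7% and 51.2% to 53.0% of the counts. For LCN2, the coding transcript LCN2-202 held 46.3% to 54.0% of the counts in control, 29.6% to 50.5% in MCF10A-TRAM2 and 56.1% and 64.8% in MCF10A-YAP5SA, where LCN2-201 held 41.4% and 28.7%. The retained-intron transcripts of LCN2 held 4.86% to 6.62%, 5.85% to 16.5% and 1.52% to 4.29% of its counts, without overlap between control and MCF10A-YAP5SA. The last range rests on few reads, as LCN2 had 335 estimated counts in each MCF10A-YAP5SA library. These reads lay on different retained-intron transcripts in libraries A and B. How many transcripts of other genes separate the groups in this way was not counted.

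TCN1 and AZGP1 had too few counts in MCF10A-YAP5SA for a share. The protein-coding transcript of TCN1 held 15.3% to 48.1% of its counts in control and 26.8% to 57.5% in MCF10A-TRAM2, with most of the rest on short non-coding transcripts. By TPM that share was a median of 8.15% in control, so the level per length of TCN1 rests largely on those short models. AZGP1 had 77.6% to 80.6% of its counts on coding transcripts in control and 72.7% to 81.7% in MCF10A-TRAM2. Salmon divides reads between overlapping transcripts by estimation, and none of these shares was tested.

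The genes beside the members on the chromosome were also not used to choose them. Of 38 other genes tested within 100 kb of a member, 6 were called higher and 4 lower in MCF10A-YAP5SA against control, beside the 15.3% and 14.1% of all genes given above. None of the 8 genes tested around LCN2 was called. SDC4, which encodes the matrix receptor syndecan 4 and lies 70723 bases from SLPI, had a log2 fold change of 0.12, and STK4, a Hippo pathway kinase gene 94881 bases from PI3, was higher by 0.74 (edgeR adjusted p = 6.5e-08). Around AZGP1, which was almost lost, ZSCAN21 was higher by 0.52 (edgeR adjusted p = 0.001) and TRIM4, ZKSCAN1 and ZNF3 lay between -0.17 and 0.13.

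At the C3 locus 3 of 7 tested neighbours were called lower, beside 14.1% of all genes tested, and 1 of these 3 overlaps C3 itself. TNFSF14, the gene of the cytokine LIGHT, 7116 bases from C3, fell by 2.85 on the log2 scale (edgeR adjusted p = 5.2e-08), from 7.90 CPM in control to 1.09 CPM, and SH2D3A fell by 0.84 (adjusted p = 3.3e-06). The third, a non-coding RNA on the same strand as C3 (ENSG00000276980), fell by 2.93 (adjusted p = 2.5e-05), and since it overlaps C3 its reads cannot be told apart from those of C3 with certainty. GPR108, which overlaps the other end of C3, had a log2 fold change of -0.07. Calls were also found elsewhere. TNXB, 89067 bases from CFB, fell by 2.23 (edgeR adjusted p = 0.00034), FAM66B, 73529 bases from DEFB103B, rose by 1.48 (adjusted p = 0.00033) and the pseudogene FABP5P7, 71078 bases from TCN1, rose by 1.16 (adjusted p = 0.0052). Whether reads assigned to FABP5P7, a processed pseudogene, came from another gene was not tested. ARHGEF40 and ZNF219 beside RNASE7 rose by 0.89 and 0.65 (edgeR adjusted p = 0.0059 and 0.0041). These neighbours were named after their values were seen.

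**Figure D4:**
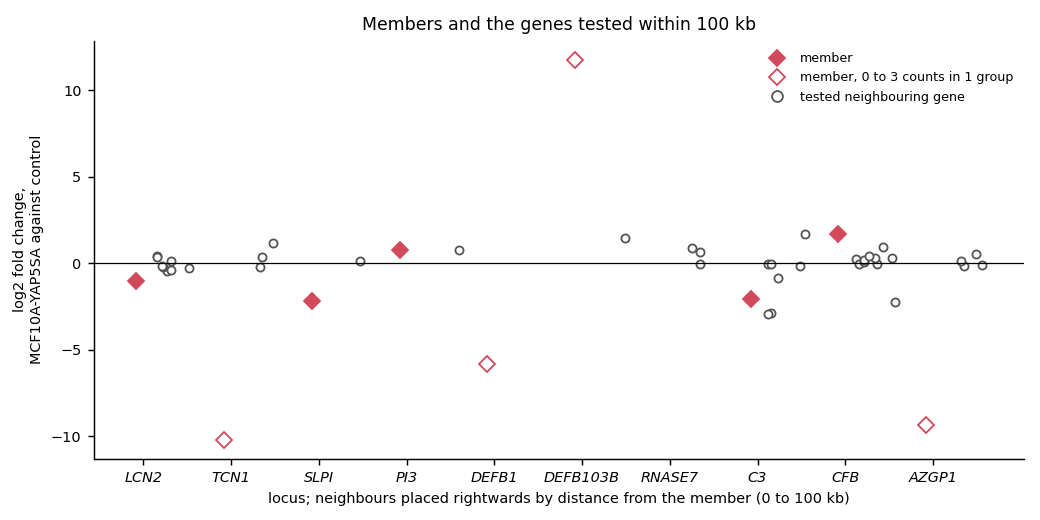
Log2 fold change in MCF10A-YAP5SA against control of each member (diamonds, open where 1 group had 0 to 3 counts) and of the 38 other genes tested within 100 kb of it (circles, placed to the right by distance). Of the neighbours, 28 were not called, TNFSF14 and the overlapping non-coding RNA lie low beside C3, TNXB lies low beside CFB, and FAM66B and FABP5P7 lie high beside DEFB103B and TCN1.

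The genes whose profiles over the 8 samples were most like each member, by the root mean square difference of mean-centred log2 CPM, were CDC42BPG (0.05) and GJB5 (0.06) for C3, CTSV (0.09) and RAET1E (0.12) for SLPI, and HOXA7 (0.14) and ST6GALNAC5 (0.15) for LCN2. For TCN1 they were WFDC2 (0.18), which encodes another small protease inhibitor, and the basal keratin gene KRT15 (0.21). For AZGP1 they were the kallikrein protease genes KLK7 (0.40) and KLK5 (0.40), for DEFB103B they were CLIC5 (0.35) and the N-cadherin gene CDH2 (0.38), and for PI3 they were RIMS3 (0.22) and PALM2 (0.25). Where TCN1, AZGP1 and DEFB103B had few or no counts, their log2 CPM depends on the prior count, and so do their differences from other genes. The samples share libraries and depth, and likeness over 8 points of 3 groups is a description.

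Related genes from 5 lists were examined for the setting of these changes, in edgeR over the same 15768 genes. Of 53 other secreted antimicrobial proteins, 51 were in the files and 10 passed the filter on low counts, and 21 had no count in any sample. In MCF10A-YAP5SA, 2 rose and 3 fell, beside 15.3% called higher and 14.1% lower over all genes. The list median was -0.40 against -0.01 over all genes. ADM (adrenomedullin, a vasodilator peptide with antimicrobial activity) rose from 11.95 ± 0.467 to 87.7 ± 0.388 CPM (SD, n = 2 each, log2 fold change 2.88, SE 0.12, edgeR adjusted p = 6e-10), and the chemokine CCL20 rose by 0.86 (adjusted p = 0.0059). CHI3L2 fell by 2.41 (SE 0.33, edgeR adjusted p = 2.8e-05), S100A9, a subunit of the metal-chelating calprotectin, fell by 2.14 (SE 0.29, adjusted p = 2.9e-05) and the mucosal chemokine CCL28 fell by 0.99 (adjusted p = 0.0041).

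The other complement genes that were called had the direction of CFB. Of 42 components and regulators, 13 passed the filter. By edgeR 5 rose and none fell in MCF10A-YAP5SA, beside 15.3% called higher and 14.1% lower over all genes. An unadjusted edgeR p under 0.05 was found for 7 of the 13, beside 8487 of all 15768 genes. DESeq2 called 4 higher and none lower. The 13 genes had a median log2 fold change of 0.39. CLU (clusterin, which blocks the terminal complex) rose from 2.72 ± 0.107 to 25.8 ± 0.0352 CPM (SD, n = 2 each, log2 fold change 3.24, SE 0.15, edgeR adjusted p = 3.2e-10). CD59, the membrane inhibitor of the terminal complex, rose by 0.79 (SE 0.07, edgeR adjusted p = 1.5e-06). SERPING1, the C1 inhibitor, went from 2 to 36 counts, a ratio of 29.3 (95% counting interval 7.55 to 251). C4BPB, a chain of the C4b-binding protein that restrains the classical pathway, went from 3 to 28 counts, a ratio of 15.2 (95% counting interval 4.70 to 78.1). C1R, a protease of the classical pathway, was the other gene called higher, by 1.63 (SE 0.56, edgeR adjusted p = 0.025). It was a low transcript, with 15 counts in control and 29 in MCF10A-YAP5SA, 0.372 and 1.17 CPM.

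Receptors and transcription factors of epithelial innate defence mostly fell where they moved, with 14 lower and 4 higher of 35 tested and a list median of -0.17, beside 14.1% lower and 15.3% higher over all genes and a median of -0.01. ELF3, an epithelial ETS factor, fell from 46.7 ± 1.30 to 1.93 ± 0.00104 CPM (SD, n = 2 each, log2 fold change -4.59, SE 0.13, edgeR adjusted p = 2.2e-12), and EHF, a related factor, fell by 5.71 (SE 0.18, adjusted p = 8.5e-12). CEBPB, a C/EBP factor of acute-phase genes, fell by 2.26 (SE 0.08, edgeR adjusted p = 2.3e-11). TLR4, the receptor for lipopolysaccharide, rose from 9.89 ± 0.576 to 44.0 ± 0.166 CPM (log2 fold change 2.15, SE 0.09, adjusted p = 1.3e-10). TLR1, TLR2, TLR3 and TLR6 were among those that fell, with log2 fold changes of -2.34, -4.35, -2.07 and -2.25, and these were named after their values were seen. The NF-kB subunit genes RELA, NFKB1, NFKB2 and RELB had log2 fold changes of 0.20, 0.16, 0.17 and 0.34 and none was called.

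Of the WAP-domain and other small protease inhibitors, 7 were called lower and 1 higher of 10 tested, with a median of -1.38, beside the same 14.1% and 15.3% of all genes. WFDC2, whose gene lies in the same WAP-domain family as SLPI and PI3, fell from 63.5 ± 0.284 to 0.972 ± 0.171 CPM (SD, n = 2 each, log2 fold change -6.03, SE 0.27, edgeR adjusted p = 9.7e-08). SERPINA3, an acute-phase inhibitor of cathepsin G, fell by 4.56 (SE 0.16, edgeR adjusted p = 1.4e-11), and the membrane inhibitors SPINT1 and SPINT2 fell by 1.14 (adjusted p = 2.5e-07) and 0.95 (adjusted p = 1.5e-09). CST6 was the one that rose, by 0.95 (edgeR adjusted p = 0.0066). Of the lipocalins and carriers of iron and vitamin B12, 3 were called lower, 1 higher and 11 not called of 15 tested. This stands beside 14.1% lower and 15.3% higher over all genes, and the list median was -0.24.

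Among those carriers, the ferritin heavy chain gene FTH1 fell by 0.72 (SE 0.06, edgeR adjusted p = 3.1e-07) and the transferrin receptor gene TFRC by 0.61 (adjusted p = 5.2e-07), while the ferritin light chain gene FTL rose by 0.57 (adjusted p = 0.00025). TCN2, the plasma carrier of vitamin B12 related to TCN1, fell by 1.07 (SE 0.34, edgeR adjusted p = 0.018), which was not called without control 1, without MCF10A-YAP5SA A, in the first run alone or by DESeq2. In MCF10A-TRAM2 no gene of the 5 lists was called on the 8 samples by DESeq2, or by edgeR with the filter on low counts. Without that filter edgeR called 1 of the other antimicrobial genes. Among genes that passed the filter, 1 antimicrobial, 2 complement, 6 receptor and factor, 2 inhibitor and 3 carrier genes had an unadjusted edgeR p under 0.05 in MCF10A-TRAM2. Over all 15768 genes, 1987 did.

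**Figure D5:**
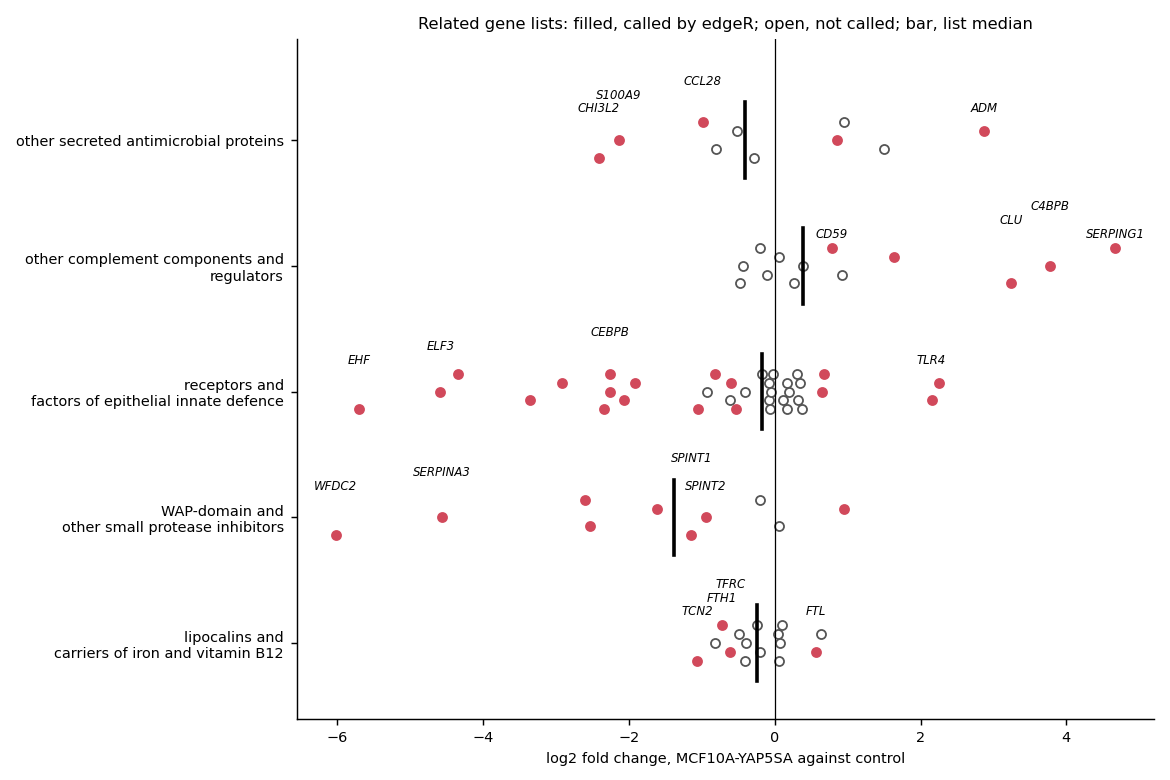
Log2 fold change in MCF10A-YAP5SA against control of the tested genes of 5 related lists, with called genes filled, others open and a bar at each list median. Called complement genes lie to the right of 0, and called protease inhibitors lie to the left of it except CST6. The position of SERPING1 and C4BPB, with 2 and 3 counts in control, depends on the fit's prior count.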

How the data were processed

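Adapters had been removed with cutadapt and transcripts quantified with Salmon, per the labels. Neither their versions nor the genome build is stated in the labels or the methods. The authors deposited an estimated count per transcript and library, which need not be whole, and a deposited TPM value (which divides by effective length). Estimated counts were summed per gene and rounded. The 2 pairs of control libraries whose difference could not be told from sampling noise were summed, the check resting on genes with counts within 0.001 of whole numbers and a mean of at least 50. filterByExpr kept 15768 genes. TMM factors scaled the samples, and the quasi-likelihood test of edgeR 4.0.16 (robust) was fitted in R 4.3.3 to all 8 samples, with Benjamini-Hochberg adjustment. DESeq2 1.42.0 was an alternative. Intervals are at 95%. TPM was averaged within summed control pairs. The steps were tested on simulated data.

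The members and lists were chosen with earlier results of these data known. A complement list gene is not reported here. Named genes were all members, list genes called in MCF10A-TRAM2, up to 4 called genes of each list with the smallest adjusted p in MCF10A-YAP5SA, and the 2 genes with the profile nearest to each member of at least 5 CPM in a group. CCL20, C1R, CST6, the Toll-like receptors other than TLR4, the NF-kB subunits and the neighbours fall outside this rule and were chosen after their values were seen. Gene positions are from GENCODE v44lift37 and promoters from RefSeq. By a run number that the deposited names carry, libraries A and B belong to the first and C and D to the second run, so run and group are partly confounded, as MCF10A-YAP5SA has libraries of the first run only. What the run number stands for is not stated. Each summed control sample joins libraries of both runs, so values by run rest on controls that could not be told from repeat counts of each other. Letters did not pair libraries (correlations of deviations -0.031 to 0.035). A block on the letters, other scalings and each sample left out are given in the closing section.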

Additional observations from a re-analysis of the deposited data

Results flagged for a closer look

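Of 29 genes examined for a sample apart from the other 3 of MCF10A-TRAM2 (a gap to the nearest other sample, as a share of the range, above Dixon's 95% critical value), 4 stood out. C3 was highest in library A at 745 CPM, against 682 to 692 CPM in the others. AZGP1 was lowest in library B at 39.6 CPM, against 61.9 to 66.2 CPM. EHF was lowest in library B at 39.1 CPM, and CLU was highest in library A at 2.98 CPM. Chance flags about 1 in 20 groups. PI3 in library B, at 39.1 CPM against 10.7 to 16.2 CPM, stayed just under that limit, with a gap of 0.81 of the range.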

How the results depend on the processing

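Of 50 recomputed counts of called members, 49 stayed within 1.5 times the value reported. The exception was MCF10A-TRAM2 against control, where DESeq2 called 2 members (AZGP1 and LCN2) in place of 1. Leaving out 1 sample gave 7 to 9 members called in MCF10A-YAP5SA. For other antimicrobial proteins in MCF10A-TRAM2 the count of 0 became 1 with the 10 libraries as deposited, with the replicate block and without a filter on low counts. The block on library letters, which do not pair the libraries, gave 8, 1 and 6 called members in the 3 comparisons. Directions turned only for values that were not called. SLPI in MCF10A-TRAM2 was 0.17 in the first run and 0.0431 and 0.0501 without replicates C and D, and TCN1 there was 0.0497 in the first run. PI3 in MCF10A-YAP5SA against MCF10A-TRAM2 was -0.24 with the block, -0.29 with the run as a term, -0.47 in the first run, -0.067 by library size alone and -0.01 to -0.18 without single replicates, yet 0.59 and called without MCF10A-TRAM2 B. CFB in that comparison was -0.13 and -0.28 on the log2 scale of TPM with 1 and 0.1 added. CFB in MCF10A-YAP5SA against control, 1.67 in edgeR, was 0.22 and 0.69 on those scales. The TPM of CFB was 0.213 in control and 0.411 in MCF10A-YAP5SA, so the amount added compresses these values, most of all with 1. How much of the gap to the edgeR value this makes up was not tested. With 1 protein-coding transcript per member, chosen after seeing the data, the summed TPM was 155, 170 and 102 in control, MCF10A-TRAM2 and MCF10A-YAP5SA (the longest) or 218, 208 and 121 (the one with the most counts), where all transcripts gave 1327, 1242 and 372. Protein-coding shares of control transcripts were 93.1% (LCN2), 60.0% (C3), 35.9% (TCN1) and 79.1% (AZGP1) by counts, where TPM gave 85.3%, 32.3%, 8.15% and 55.0%. The sum of DEFB103A and DEFB103B could not be run, since DEFB103A had no values of its own in the deposited data. With 2 samples in 2 of the groups, depth and number limit all members under 1 CPM, CFB above all.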
